A study of Saccharomyces cerevisiae with 4 samples.

Results

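The strain difference in the rapamycin response of budding yeast, Saccharomyces cerevisiae, was examined here gene by gene: the mean log ratio of the ptc1 arrays minus the mean log ratio of the wild-type (wt) arrays. A gene was included where its row had a value on all 4 arrays, which held for 4650 of 6176 genes. The ptc1 strain lacks the Ptc1 protein phosphatase, and the wt strain carries it. In each strain, cells treated with rapamycin at 200 ng/ml for 1 h were set against mock-treated cells that received only the solvent, 90% ethanol and 10% Tween-20. All cultures were grown at 28 °C in YPD, a rich medium, to an absorbance (A660) of 0.5. There were 2 arrays of the ptc1 strain and 2 of the wt strain, and the labels describe a dye swap of each RNA sample. The arrays of a strain were therefore taken as 1 biological sample and a ± as the spread of its arrays, although the labels do not say whether they shared a culture. Strain background, the extent of the deletion and the number of clones are not stated in the labels.

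Rapamycin binds the small protein Fpr1 and blocks TORC1, the kinase complex that promotes ribosome production and keeps genes for poor nitrogen sources, stress and autophagy low while nutrients are plentiful. Ptc1 is a type 2C serine/threonine phosphatase that dephosphorylates the osmotic stress kinase Hog1 and, through the adaptor Nbp2, also acts on the cell wall integrity pathway, a cascade that ends in the kinase Slt2. Each array holds a strain's treated cells over its own mock-treated cells, so a strain difference in the treated RNA and one in the mock RNA cannot be told apart.

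Values are deposited log ratios, read as log2 of rapamycin over mock. The deposited table names neither base nor direction, so a difference of 1 is 2-fold only on that reading. The ptc1 arrays had 5418 and 5301 measured rows and the wt arrays 5017 and 5006. Over the 4650 genes the ptc1 arrays correlated with each other at r = 0.869 and the wt arrays at r = 0.958, while ptc1 and wt arrays correlated at 0.898 to 0.940. The median array SD of a gene was 0.267 in ptc1 and 0.153 in wt. PTC1 itself (YDL006W) had no value on either ptc1 array and stood at 0.00 and −0.53 on the wt arrays, so the deletion could be checked only as an unmeasured spot. Precision is limited by there being 2 arrays a strain.

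Most genes differed little between the strains. The median strain difference was −0.003 and its SD over genes was 0.37. The 5th and 95th percentiles lay at −0.58 and 0.59, and 85.9% of genes differed by less than 0.5 in size. A gene was said to pass the rule where the difference was at least 1 in size and each of the 4 differences between a ptc1 and a wt array had the same sign. The rule was passed by 88 genes (1.89%), of which 45 were higher in ptc1 (0.968%) and 43 were lower (0.925%). In 26 of them each of the 4 array pairs differed by at least 1, and in 64 the difference exceeded 2 combined SDs of the arrays. One sign in all 4 pairs, whatever the size, was seen in 34.6% of all genes. A lack of overlap between strains in a single gene is therefore common. No p-value was calculated, since each strain was treated as a single biological sample.

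**Figure D1:**
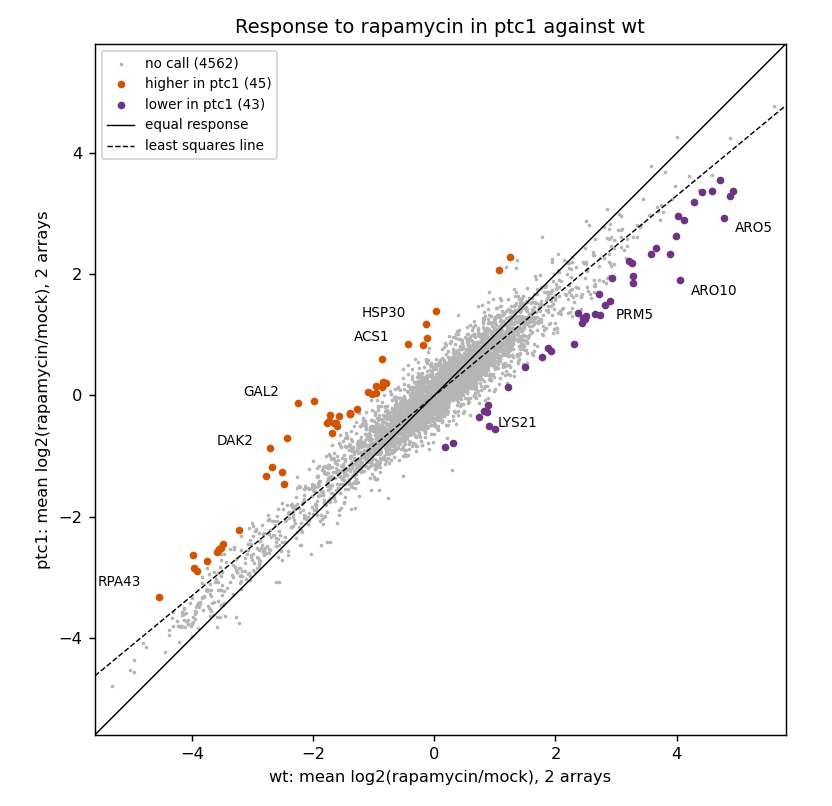
Mean log2 ratio of rapamycin over mock in ptc1 (vertical axis) against wt (horizontal axis), 1 point per gene measured on all 4 arrays. The 43 genes lower in ptc1 lie mainly at the right, where wt ratios are positive, and the 45 higher genes mainly at the left. The dashed line of all genes, with a slope of 0.825, is flatter than the solid line of equal response.

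The ptc1 value was the one closer to 0 in 79 of the 88 genes. The 88 were picked by the size of this same difference, and the share over all genes was not counted. Of the 43 lower genes, 35 had a wt mean of at least 1 and none a wt mean of −1 or less. Of the 45 higher genes, 32 had a wt mean of −1 or less, 11 lay between and 2 had a wt mean of at least 1. The shares of all genes with such wt means were not counted either. Picking by ptc1 minus wt favours high wt values among lower genes and low wt values among higher genes. A least squares line of the ptc1 mean on the wt mean had a slope of 0.825 and an intercept of −0.004. Measured from that line instead of from equal response, 26 genes passed, 19 higher and 7 lower, and 15 and 6 of them were among the genes above. The counts also moved with the arrays used. Without ptc1 array 1 they were 90 higher and 109 lower, without ptc1 array 2 they were 42 and 81, and without wt array 2 they were 53 and 70.

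Genes for making amino acids, apart from those of sulfur assimilation and methionine, mostly carried lower ratios in ptc1 than in wt. Over 7 lists of synthesis genes, which leave out the sulfur and methionine list, 60 of 65 measured members had a difference below 0, against 50.4% of all genes. Their median difference was −0.49, and it ranged from −0.67 to −0.33 over the array pairs. The same sign in all 4 pairs, with no overlap of the strains, was seen for 43 lower members, against 16.5% of all genes. Of the 65 genes 6 passed the rule as lower, against 0.925% of all genes, and none as higher. The sulfur and methionine list had 11 of 20 members below 0 and a median difference of −0.02, and 1 member passed the rule as higher. Its medians in the 4 array pairs were all above 0 (0.007 to 0.295).

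Arginine synthesis stood lowest of the 62 lists examined. Each of its 9 measured genes was lower in ptc1 in all 4 pairs, with a median difference of −0.97 (−1.06 to −0.75 over pairs), and the list median of the log2 ratio was 1.67 in ptc1 against 2.71 in wt. ARG1, which encodes argininosuccinate synthetase, had ratios of 3.39 and 1.86 on the ptc1 arrays, against 3.82 and 4.14 on the wt arrays. Both ptc1 values lay below both wt values, but far from each other: the difference of −1.35 ± 1.10 became −2.12 without ptc1 array 1 and −0.59 without ptc1 array 2. ARG4, the gene of argininosuccinate lyase, which acts next in the pathway, had 3.60 and 3.14 on the ptc1 arrays, against 4.60 and 4.58 on the wt arrays. That difference of −1.22 ± 0.32 exceeded the array spread, and both ptc1 arrays lay at least 0.98 below both wt arrays. CPA1, for the small subunit of carbamoyl phosphate synthetase, had 2.29 and 2.09 in ptc1, against 3.15 and 3.38 in wt, a difference of −1.08 ± 0.22. ARG3, for ornithine carbamoyltransferase, had 1.40 and 1.94 in ptc1, against 2.81 and 2.61 in wt (−1.04 ± 0.41). In both genes the strains did not overlap, as the rule requires. The mitochondrial ornithine carrier gene ORT1 (−0.97 ± 0.28), ARG8 (−0.85 ± 0.53), ARG2 (−0.72 ± 0.20) and ARG5,6 (−0.56 ± 0.50) lay inside the threshold of 1.

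Lysine synthesis followed, with 9 of 9 members below 0 and a median difference of −0.70 (−0.74 to −0.55 over pairs). LYS21, for a homocitrate synthase, the first enzyme of the pathway, had 0.07 and −0.63 on the ptc1 arrays, against 0.62 and 1.11 on the wt arrays (−1.15 ± 0.60). Its close paralogue LYS20 had 0.03 and −0.74 in ptc1, against 0.51 and 0.97 in wt, and its difference of −1.09 ± 0.63 became −0.71 without ptc1 array 2. Signal shared between these similar genes was not examined. LYS2 (−0.83 ± 0.13), LYS1 (−0.71 ± 0.23), LYS9 (−0.70 ± 0.59) and the activator gene LYS14 (−0.64 ± 0.10) did not reach the size of 1.

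The other amino acid lists had smaller differences. Histidine genes were below 0 in 6 of 6 (median −0.48), led by HIS5 (−0.93 ± 0.75) and HIS4 (−0.87 ± 0.43). Aromatic amino acid genes were below 0 in 11 of 12 (median −0.50, and −0.29 without ptc1 array 2), with TRP5 at −0.74 ± 0.75 and the chorismate mutase gene ARO7 opposite at 0.40 ± 0.38. Aspartate, threonine and serine genes were below 0 in 11 of 11 (median −0.33, and −0.50 without ptc1 array 1), with the asparagine synthetase gene ASN1 at −0.78 ± 0.93. In none of these lists did a gene pass the rule, against 1.89% of all genes. The branched-chain list (median −0.41) and the glutamate, glutamine and proline list (−0.30) changed sign between array pairs. Within the branched-chain list LEU3, the gene of the pathway's own activator, stood at 0.90 ± 0.32 while ILV1 stood at −0.71 ± 0.96. GCN4, the general activator of these genes, had 0.51 and 0.53 in ptc1, against 0.84 and 0.79 in wt, a difference of −0.30 ± 0.04. Its strains did not overlap, and 16.5% of all genes were lower without overlap. PCL5, the gene of a cyclin that directs destruction of the Gcn4 protein, passed the rule with 1.44 and 1.18 in ptc1, against 2.41 and 2.59 in wt (−1.19 ± 0.23).

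**Figure D2:**
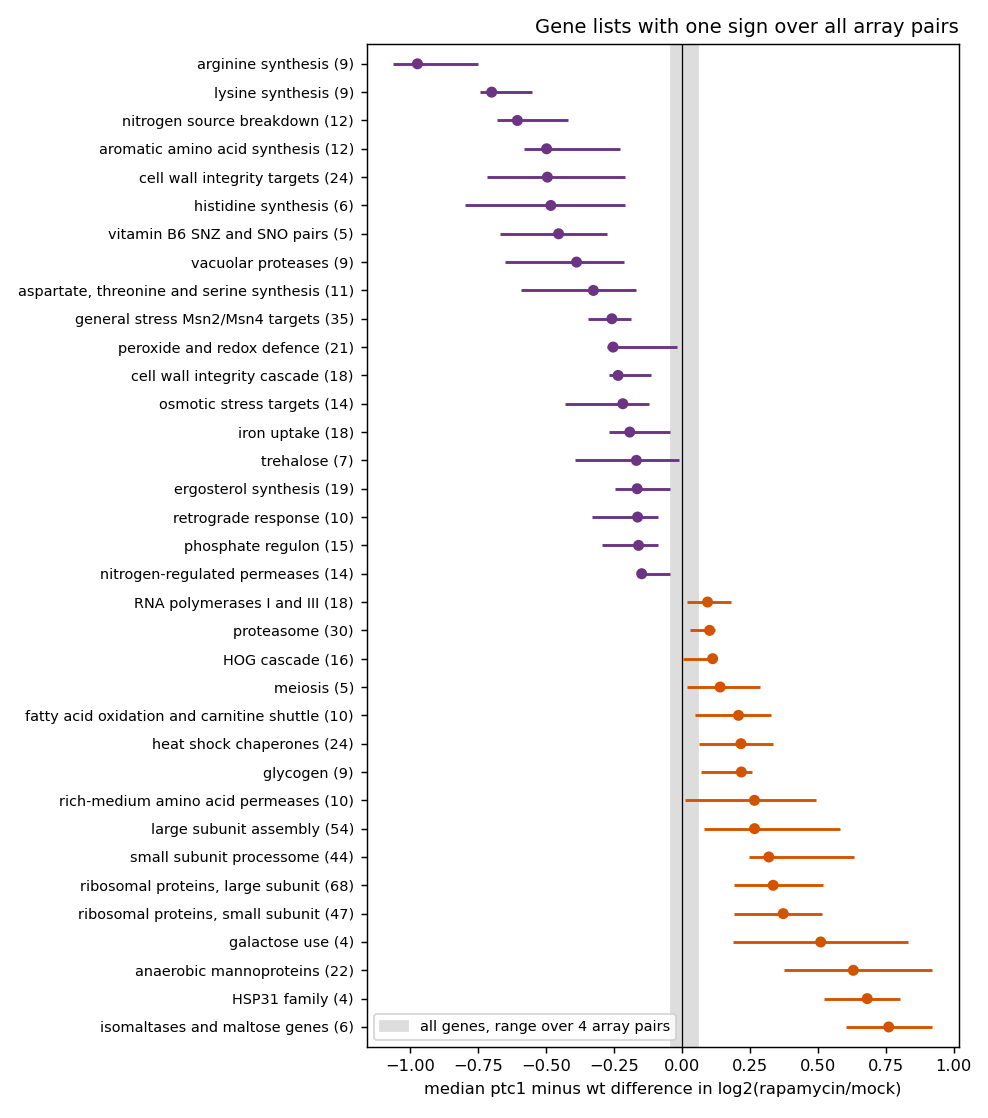
Median ptc1 minus wt difference (log2) of the 35 gene lists whose median had one sign in all 4 array pairs, with the range over pairs as a line and the number of genes in brackets. Arginine synthesis lies lowest at −0.97 and isomaltases highest at 0.76. Measured from the line of all genes, 10 of these lists change sign, among them both ribosomal protein lists, both ribosome assembly lists and the general stress list.

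Genes that break down nitrogen compounds and proteins were also lower in ptc1. The nitrogen source breakdown list had 11 of 12 members below 0, with a median of −0.60 (−0.68 to −0.42 over pairs). CPS1, for the vacuolar carboxypeptidase S, had 3.74 and 3.38 in ptc1, against 4.28 and 5.15 in wt (−1.16 ± 0.66), and −0.73 without wt array 2. CAR2, for ornithine aminotransferase of the arginine breakdown route, had 1.19 and 0.38 in ptc1, against 1.498 and 2.26 in wt (−1.10 ± 0.79). Its difference was −0.69 without ptc1 array 2 and −0.71 without wt array 2. CAR1, the arginase gene, differed by −0.91 ± 0.11 with no overlap, so both directions of arginine metabolism had lower ratios. UGA1 (−0.72 ± 0.24) and GDH2 (−0.68 ± 0.20) were below the wt arrays as well, whereas the allantoin genes DAL1 (−0.03 ± 0.62) and DAL3 (−0.12 ± 0.58) and the proline gene PUT2 (0.08 ± 0.60) overlapped.

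ARO10 had the most negative difference of all genes. It encodes a decarboxylase that breaks down aromatic amino acids by way of their keto acids. Its ratios were 2.60 and 1.20 on the ptc1 arrays, against 4.09 and 4.01 on the wt arrays, and even the higher ptc1 array lay 1.40 below the lower wt array. ARO9 (−0.82 ± 0.29) and BAT2 (−0.75 ± 0.22), the transaminases of the same breakdown routes, were lower without reaching 1. ATF2, for an alcohol acetyltransferase that forms esters from the resulting alcohols, went the other way, with −1.88 and −0.77 in ptc1, against −2.66 and −2.89 in wt (1.45 ± 0.80, and 0.89 without ptc1 array 2). The list as a whole had no single sign over the pairs.

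The vacuolar protease list, which also holds the inhibitor gene PBI2 and the cell surface protease gene YPS3, was below 0 in 8 of 9. Its median was −0.39, and its lowest member, CPS1, is also in the nitrogen source breakdown list. APE1, for aminopeptidase I, had 3.67 and 2.71 in ptc1, against 4.23 and 4.34 in wt (−1.10 ± 0.68, and −0.62 without ptc1 array 2). PRB1, for proteinase B, differed by −0.74 ± 0.16. Autophagy genes, which supply the vacuole, had no one sign over 28 measured members. Their ends were ATG34 (−0.90 ± 1.25) and ATG22, for a vacuolar amino acid exporter (0.70 ± 0.40).

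Uptake genes divided. Among 14 permeases regulated by nitrogen supply the median was −0.15, or −0.26 without wt array 2, and it turns to 0.15 when measured from the line of all genes. Only the di- and tripeptide transporter gene PTR2 passed the rule in that list, with 1.82 and 0.73 in ptc1, against 2.35 and 2.55 in wt, and its difference of −1.17 ± 0.78 became −0.63 without ptc1 array 2. GAP1, for the general amino acid permease, differed by −0.83 ± 0.70 and CAN1, for the arginine permease, by −0.61 ± 0.77, while the ammonium permease gene MEP2 stood at 0.26 ± 0.28. Of 10 permeases of rich medium 8 were above 0, with a median of 0.27 (0.01 to 0.49 over pairs). MMP1, for the S-methylmethionine permease, had −0.77 and −1.59 in ptc1, against −2.85 and −2.50 in wt (1.497 ± 0.63). MUP1, for the high-affinity methionine permease, stood at 0.85 ± 0.35. In this list the median was 0.11 without ptc1 array 1 and 0.43 without ptc1 array 2 or without wt array 2.

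The cell wall integrity pathway was examined because Ptc1 acts on it. Of 24 measured target genes 22 were below 0 and 4 passed the rule as lower, against 0.925% of all genes. The median difference was −0.49 (−0.72 to −0.21 over pairs), and it was −0.30 without wt array 2 and −0.24 when measured from the line of all genes. KDX1, a kinase-like gene that Slt2 and the factor Rlm1 control, had 1.07 and 1.59 on the ptc1 arrays, against 3.001 and 2.48 on the wt arrays (−1.41 ± 0.52). PRM5, a membrane protein gene widely used to report the pathway, had 1.46 and 1.53 in ptc1, against 2.82 and 2.82 in wt. The arrays of each strain were nearly equal for PRM5, so its difference of −1.33 ± 0.05 had a small array spread. SRL3 had 2.45 and 2.22 in ptc1, against 3.62 and 3.54 in wt (−1.24 ± 0.17). SCW10, for a glucanase-like wall protein, had −0.28 and −1.31 in ptc1, against 0.21 and 0.40 in wt (−1.10 ± 0.74, and −0.58 without ptc1 array 2), so the strains took opposite signs. The structural wall protein genes SED1 (−0.92 ± 0.51), CCW14 (−0.67 ± 0.41) and CWP2 (−0.65 ± 0.62) lay inside the threshold, and the 2 members above 0 were PUN1 (0.29 ± 0.39) and YPS1 (0.19 ± 0.22).

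The kinase cascade that drives these targets had a smaller median difference of −0.23 over 18 genes, with −0.09 without ptc1 array 2 and −0.13 without wt array 1. SLT2, the MAP kinase gene at its end, had 1.32 and 1.29 in ptc1, against 2.50 and 2.03 in wt, a difference of −0.96 ± 0.33 that missed the size of 1 but was below wt in every pair. RLM1, the factor it activates, stood at −0.62 ± 0.63 and the kinase gene MKK1 at −0.26 ± 0.29. The sensor gene WSC1 (0.30 ± 0.22) and SWI6, for a cofactor of cell cycle transcription that Slt2 also phosphorylates (0.49 ± 0.71), were above 0.

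The osmotic stress (HOG) cascade showed little that was shared. Its 16 genes had a median of 0.11, which was 0.01 without wt array 1. SMP1, for a transcription factor that Hog1 phosphorylates, passed the rule with 0.15 and 0.15 in ptc1, against −1.05 and −0.69 in wt (1.02 ± 0.26). The MAP kinase kinase gene PBS2 had 0.82 and 0.24 in ptc1, against −0.09 and −0.17 in wt (0.66 ± 0.41), and the adaptor gene NBP2 stood at 0.38 ± 0.61. MSB2, for a membrane sensor of the pathway, was opposite, with −0.39 and −0.58 in ptc1, against 0.27 and 0.13 in wt (−0.68 ± 0.16). Osmotic stress targets were below 0 in 13 of 14 (median −0.22, −0.41 without ptc1 array 1 and −0.03 from the line of all genes). Lowest was GPP2, for glycerol-3-phosphate phosphatase, at −0.91 ± 0.57. The exception was TKL2, a transketolase gene that passed the rule as higher, with −0.15 and −0.29 in ptc1, against −1.30 and −1.26 in wt (1.06 ± 0.11).

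Ratios of the regulators' own transcripts differed little, as those of most genes did. Of 28 genes of TORC1 and its phosphatase branch none passed the rule, against 1.89% of all genes, so that count does not set the list apart. The list had no one sign, and its members ran from NPR3 (−0.40 ± 0.49) to the kinase gene YAK1 (0.41 ± 0.30). SIT4, the phosphatase gene of that branch, had −0.16 and −0.29 in ptc1, against −0.58 and −0.52 in wt (0.32 ± 0.10). The GATA factor genes GLN3 (0.12 ± 0.49) and GAT1 (0.08 ± 0.33) overlapped between strains. Of the other type 2C phosphatases PTC7 stood at −0.37 ± 0.18, and PTC2, PTC3, PTC5 and PTC6 lay between −0.14 and 0.14.

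Stress genes were split. General stress targets of the factors Msn2 and Msn4 were below 0 in 28 of 35 (median −0.26, which turns to 0.05 when measured from the line of all genes). HSP12, for a small membrane-associated stress protein, had 2.96 and 3.63 in ptc1, against 4.95 and 4.81 in wt (−1.59 ± 0.48). DDR2 had 4.10 and 2.63 in ptc1, against 4.24 and 4.60 in wt, and its difference of −1.05 ± 1.07 was −1.79 without ptc1 array 1 and −0.32 without ptc1 array 2. TSA2, for an inducible peroxiredoxin, had 2.74 and 1.93 in ptc1, against 3.77 and 4.01 in wt (−1.56 ± 0.59). It was the member past the rule among 21 peroxide and redox genes, whose median of −0.25 turns to 0.01 measured from that line. Without ptc1 array 2 that median was −0.11, and without wt array 2 it was −0.17. The heat shock chaperone list had 19 of 24 members above 0, with a median of 0.22, 0.14 without ptc1 array 1 and 0.10 without wt array 2. HSP30, for a plasma membrane protein, was its member past the rule, with 1.11 and 1.25 on the ptc1 arrays, against −0.02 and −0.24 on the wt arrays. The chaperone genes SSB2 (0.99 ± 1.01) and HSP26 (−0.98 ± 0.20) were at its ends. Among the stress factor genes GIS1 was 0.88 ± 0.26 and YAP1 0.58 ± 0.36, while MSN2 was −0.10 ± 0.17.

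**Figure D3:**
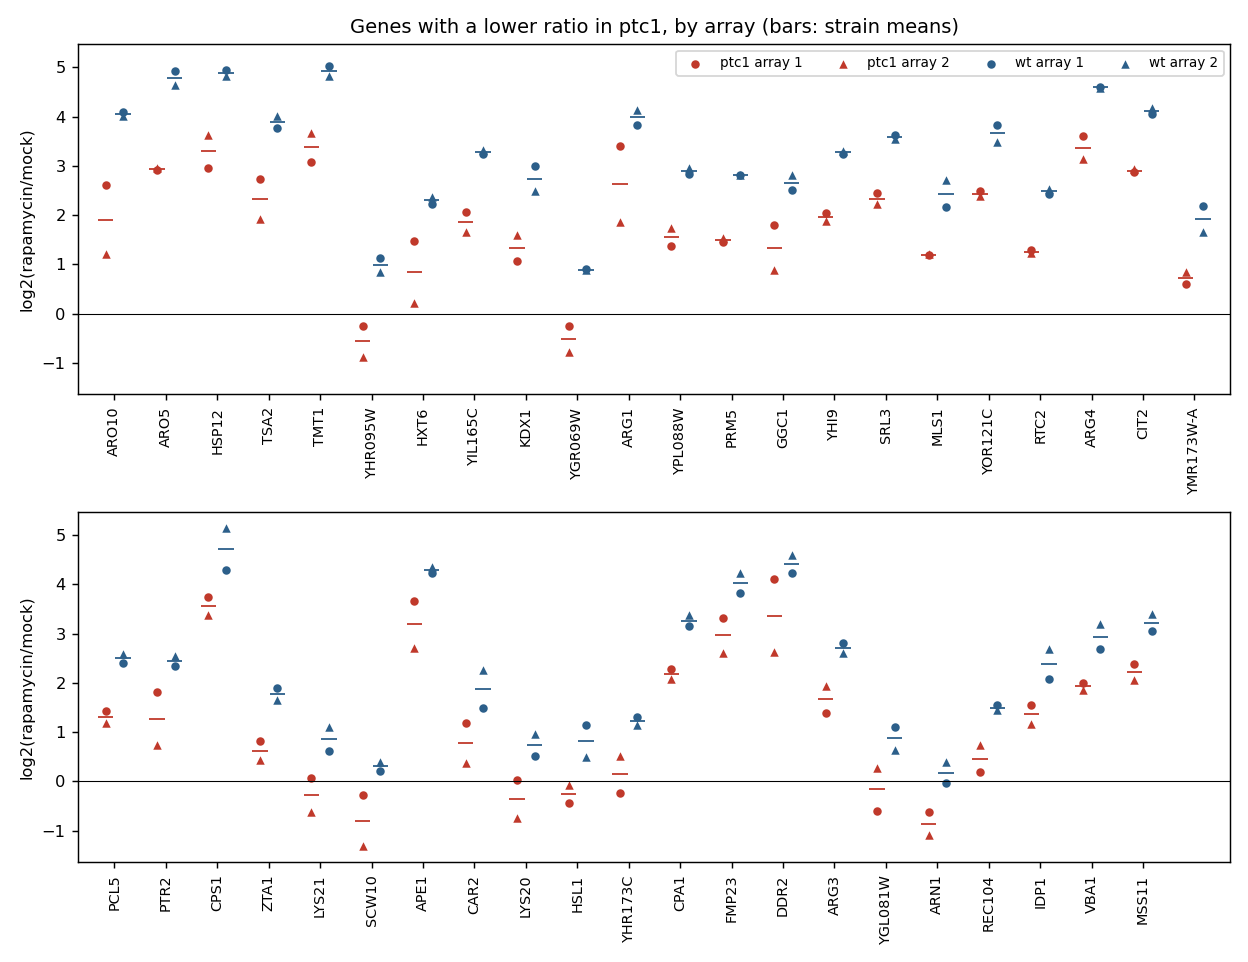
Log2 ratio of rapamycin over mock on each array for the 43 genes lower in ptc1, ordered by the difference, with ptc1 in red at the left of each gene and wt in blue at its right (circles array 1, triangles array 2, bars strain means). ARO10, ARG1 and DDR2 show wide gaps between the ptc1 arrays, while PRM5, RTC2 and CIT2 show narrow ones.

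Several metabolic genes outside these lists, or alone in theirs, were lower in ptc1. CIT2, for the peroxisomal citrate synthase of the retrograde response, had 2.87 and 2.94 in ptc1, against 4.05 and 4.18 in wt (−1.21 ± 0.10). PYC1, for pyruvate carboxylase, stood at −0.73 ± 0.30, and the retrograde list median of −0.16 turns to 0.14 measured from the line of all genes. MLS1, for malate synthase, had 1.19 and 1.20 in ptc1, against 2.17 and 2.71 in wt (−1.24 ± 0.38). IDP1, for mitochondrial isocitrate dehydrogenase, differed by −1.01 ± 0.51. GGC1, for the mitochondrial GTP/GDP carrier, had 1.80 and 0.88 in ptc1, against 2.51 and 2.81 in wt (−1.32 ± 0.68, and −0.86 without ptc1 array 2). RTC2, for a vacuolar membrane protein, had 1.30 and 1.22 in ptc1, against 2.43 and 2.54 in wt (−1.22 ± 0.10), and VBA1, for a vacuolar permease of basic amino acids, differed by −1.01 ± 0.36. ARO5 had 2.92 and 2.95 in ptc1, against 4.92 and 4.63 in wt. TMT1, for trans-aconitate methyltransferase, had 3.08 and 3.67 in ptc1, against 5.03 and 4.82 in wt. The siderophore transporter gene ARN1 had −0.63 and −1.08 in ptc1, against −0.03 and 0.39 in wt (−1.03 ± 0.44), and the iron-regulated wall mannoprotein gene FIT2 stood at −0.91 ± 0.17. HXT6, a hexose transporter gene, differed by −1.45 ± 0.89 and by −0.83 without ptc1 array 2. Its near-identical neighbour makes that value uncertain. The vitamin B6 gene SNZ1 had 3.50 and 3.78 in ptc1, against 4.55 and 4.61 in wt (−0.94 ± 0.20), and its divergent partner SNO1 stood at −0.67 ± 0.02.

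Genes for making ribosomes, whose ratios were strongly negative in both strains, had less negative ratios in ptc1, though not when measured from the line of all genes. Of 115 ribosomal protein genes 104 had a difference above 0, against 49.6% of all genes, and the median difference was 0.35 (0.19 to 0.52 over pairs). Their median ratio was −3.41 in ptc1 against −3.68 in wt, and none passed the rule, against 1.89% of all genes. Measured from the line of all genes the small subunit list had a median of −0.27 and the large subunit list −0.33. With arrays scaled to equal spread they had 0.13 and 0.09. RPL29 was highest, with −2.99 and −2.53 in ptc1, against −3.75 and −3.73 in wt (0.98 ± 0.32), followed by RPL15A (0.85 ± 0.17), RPS21B (0.74 ± 0.36) and RPL22A (0.73 ± 0.30). RPS27B was opposite at −0.57 ± 0.46, although its strains did not overlap. Many of these genes have near-identical copies that share signal, so their single values are uncertain.

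Ribosome assembly factors were above 0 in 78 of 98, against 49.6% of all genes, with a median of 0.28 (0.17 to 0.62 over pairs). The rule was passed as higher by 7, against 0.968% of all genes. Measured from the line of all genes the medians of the small subunit processome and of large subunit assembly turn to −0.06 and −0.14. Without wt array 1 they were 0.50 and 0.49, and without wt array 2 they were 0.21 and 0.09. NOG2, for a GTPase of large subunit maturation, had −2.76 and −2.52 on the ptc1 arrays, against −3.84 and −4.12 on the wt arrays (1.34 ± 0.26). NUG1, for a related GTPase, had −3.01 and −2.68 in ptc1, against −3.87 and −4.07 in wt (1.12 ± 0.27). Both ptc1 arrays were at least 0.85 above both wt arrays in these genes. NMD3, for the export adaptor of the large subunit, stood at 1.04 ± 0.59, and at 0.65 without ptc1 array 2. RRP1 differed by 1.02 ± 0.30. In the processome ENP1 had −2.23 and −2.20 in ptc1, against −3.25 and −3.21 in wt (1.02 ± 0.04), and UTP13 (1.03 ± 0.44) and UTP4 (1.00 ± 0.41) were close to it. RPA43, for a subunit of RNA polymerase I, had −3.33 and −3.31 in ptc1, against −4.47 and −4.62 in wt (1.22 ± 0.11). It was the only one of 18 polymerase I and III genes past the rule, and that list's median of 0.09 turns to −0.10 measured from the line. The same median was 0.15 without ptc1 array 2 and 0.17 without wt array 1. RRB1, for a chaperone of ribosomal protein L3, stood at 1.01 ± 0.51. AAH1, the adenine deaminase gene, differed by 1.01 ± 0.52, and by 0.65 without ptc1 array 1.

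**Figure D4:**
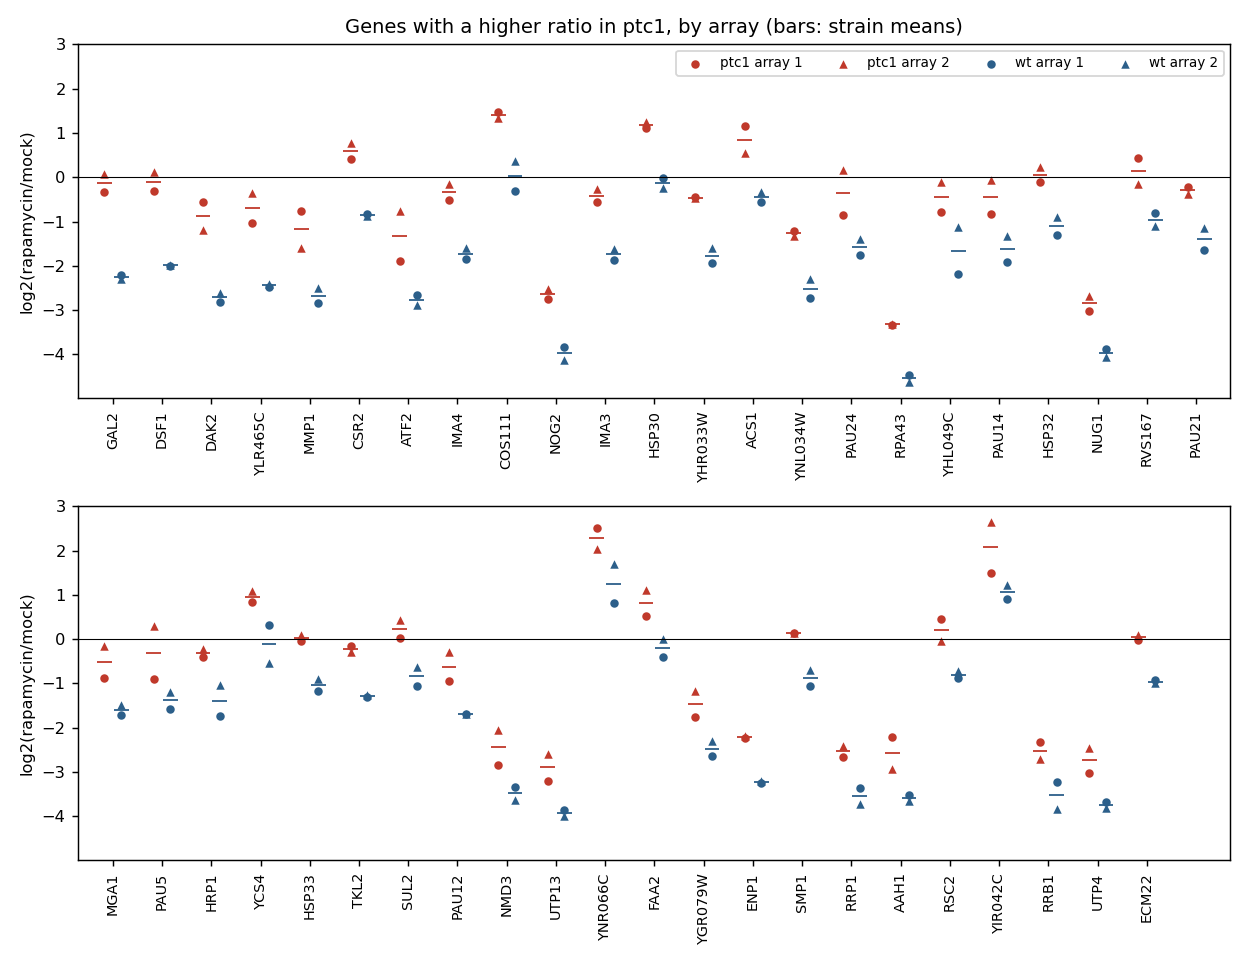
Log2 ratio of rapamycin over mock on each array for the 45 genes higher in ptc1, ordered by the difference, with ptc1 in red at the left of each gene and wt in blue at its right (circles array 1, triangles array 2, bars strain means). NOG2, RPA43, NUG1 and ENP1 lie far below 0 in both strains, whereas HSP30, CSR2 and ACS1 lie above 0 in ptc1 and below 0 in wt.

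Several genes for the use of other sugars, among them GAL2, GAL10 and the isomaltases, had wt ratios below 0 that were nearer 0 in ptc1. GAL2, for the galactose permease, had the most positive difference of all genes, with −0.33 and 0.07 on the ptc1 arrays, against −2.21 and −2.29 on the wt arrays (2.13 ± 0.29). GAL10, for the epimerase of the same pathway, had 0.00 and −0.14 in ptc1, against −1.17 and −0.93 in wt (0.98 ± 0.19). The regulator genes GAL80 (0.04 ± 0.50) and GAL3 (−0.17 ± 0.48) overlapped between strains. In this list of 4 measured genes the median was 0.51, and 0.31 without ptc1 array 1.

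The isomaltases, enzymes that cleave isomaltose and related sugars, were a second such family. All 6 measured isomaltase and maltose genes were above 0, with a median of 0.76 (0.60 to 0.92 over pairs). IMA4 had −0.51 and −0.15 in ptc1, against −1.84 and −1.60 in wt, and IMA3 had −0.57 and −0.27 in ptc1, against −1.87 and −1.61 in wt. Their values were parallel on every array, and because these genes are near-identical copies their signals may not be separate. IMA2 (0.86 ± 0.42) and IMA1 (0.66 ± 0.11) lay inside the threshold, and the activator genes MAL13 (0.04 ± 0.11) and MAL33 (0.23 ± 0.28) differed little. DSF1, for a mannitol dehydrogenase-like protein, had −0.32 and 0.13 in ptc1, against −2.0 and −1.97 in wt (1.89 ± 0.31).

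Other carbon genes passed the rule as higher singly. DAK2, for dihydroxyacetone kinase, had −0.57 and −1.18 in ptc1, against −2.81 and −2.60 in wt, whereas its paralogue DAK1 stood at −0.32 ± 0.22. ACS1, for the acetyl-CoA synthetase of non-fermenting cells, had 1.15 and 0.54 in ptc1, against −0.56 and −0.32 in wt (1.29 ± 0.46), and ACS2 stood at 0.13 ± 0.25. FAA2, for an acyl-CoA synthetase of fatty acid oxidation, had 0.53 and 1.12 in ptc1, against −0.40 and 0.01 in wt (1.02 ± 0.51). CSR2, for an adaptor of the ubiquitin ligase Rsp5, had 0.42 and 0.78 in ptc1, against −0.84 and −0.89 in wt (1.46 ± 0.25). SUL2, for a sulfate permease, had 0.02 and 0.42 in ptc1, against −1.05 and −0.63 in wt (1.06 ± 0.41), and MET3, for the enzyme that activates sulfate, stood at 0.80 ± 0.09. The sulfur list of 20 was not called. Its pair medians were above 0 (0.007 to 0.295), but its median difference was −0.02.

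The anaerobic mannoproteins, cell wall proteins of the seripauperin (PAU), TIR and DAN families that are best known from oxygen-poor cultures, were higher as a group in ptc1. Of 22 measured members 20 were above 0 and 5 passed the rule as higher, against 0.968% of all genes, with a median of 0.63 (0.37 to 0.92 over pairs). Their median ratio was −0.44 in ptc1 against −1.33 in wt. PAU24 had −0.85 and 0.16 on the ptc1 arrays, against −1.76 and −1.40 on the wt arrays (1.23 ± 0.76, and 0.73 without ptc1 array 2). PAU21 had −0.21 and −0.38 in ptc1, against −1.64 and −1.15 in wt (1.10 ± 0.36). PAU14 (1.17 ± 0.68), PAU5 (1.08 ± 0.89, with 1.68 without ptc1 array 1 and 0.48 without ptc1 array 2) and PAU12 (1.06 ± 0.47) were the others. TIR4 (−0.35 ± 0.56) and TIR1 (−0.33 ± 0.41) were below 0. PAU genes are so alike that a spot may read several of them, so the 5 are not 5 separate observations.

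The HSP31 family of chaperone-like proteins divided in the same data. HSP32 had −0.11 and 0.22 in ptc1, against −1.30 and −0.90 in wt (1.16 ± 0.37), and HSP33 had −0.04 and 0.10 in ptc1, against −1.18 and −0.89 in wt (1.06 ± 0.22). Their near-identical relative SNO4 stood at 0.30 ± 0.10. HSP31, the more distant member, was opposite, with 2.85 and 2.37 in ptc1, against 3.15 and 3.41 in wt (−0.67 ± 0.38).

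Higher genes made up a larger share of the genes near chromosome ends, in order of genes along the chromosomes of the R64 reference assembly. Of 69 measured genes with fewer than 5 genes between them and the end, 9 were higher (13.0%) and none was lower. Of 407 with fewer than 20, 15 were higher (3.69%) and 4 lower (0.983%). Of 4031 further in, 29 were higher (0.719%) and 35 lower (0.868%). The 407 genes were not shifted as a whole, with a median difference of −0.0085, against −0.0005 in the 4031. In the 69 outermost genes the median was 0.14, and all 4 pair medians were above 0 (0.169 to 0.315). Of these 69, 59.4% were above 0, against 49.6% of all genes. Leaving out the mannoprotein list left 393 genes within 20 of an end, 11 of them higher and 4 lower. Besides the PAU, IMA and HSP31 families the group holds DSF1, MMP1, DAK2, ACS1, YIR042C (1.01 ± 0.85), YNR066C (1.03 ± 0.71) and YHL049C (1.21 ± 0.89). YIR042C stood at 1.59 without ptc1 array 1 and 0.43 without ptc1 array 2, and without wt array 1 YNR066C stood at 0.59 and YHL049C at 0.68. Members of a family share sequence and are not independent. Among lower genes ZTA1 (−1.15 ± 0.31) and FMP23 (−1.06 ± 0.57), which lie further in, are direct neighbours, and APE1 and HSL1, as well as SRL3 and PTR2 of the genes within 20 of an end, lie 2 steps apart.

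**Figure D5:**
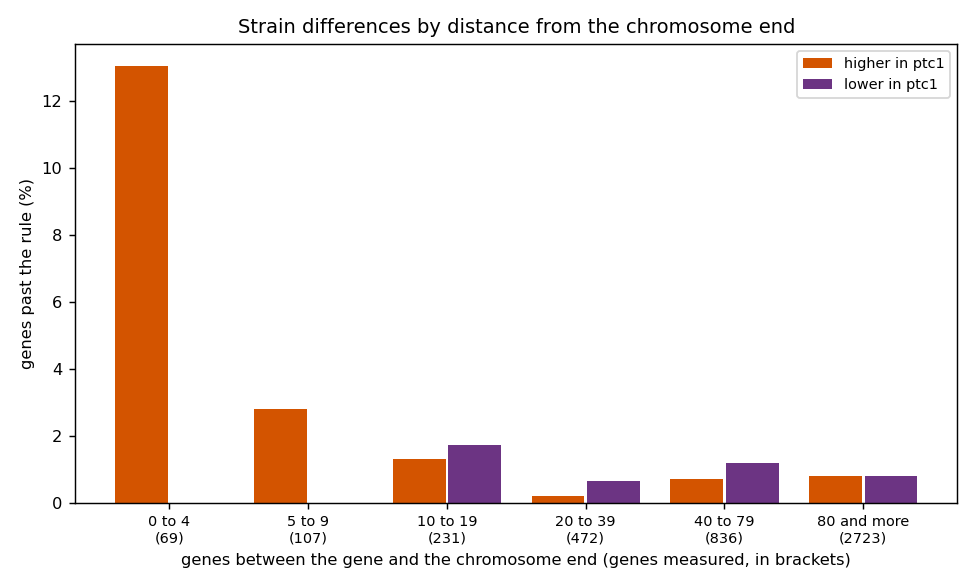
Share of measured genes past the rule as higher (orange) or lower (purple) in ptc1, by the number of genes between a gene and the nearest chromosome end, with genes measured in brackets. The bar for the outermost genes reaches 13.0% higher with none lower, while genes 80 or more from an end have 0.808% in each direction.

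In 9 of the 88 genes the strains had opposite signs on every array, which 112 of all 4650 genes did (2.41%). HSP30, ACS1, CSR2, SUL2 and SMP1 were above 0 in ptc1 and below 0 in wt. SCW10, HSL1, YHR095W and YGR069W were below 0 in ptc1 and above 0 in wt. HSL1, for a kinase of the morphogenesis checkpoint, had −0.45 and −0.06 in ptc1, against 1.16 and 0.50 in wt (−1.08 ± 0.54). YHR095W and YGR069W, which the reference assembly table does not list, had −0.24 and −0.87, and −0.24 and −0.78, in ptc1, against 1.13 and 0.86, and 0.90 and 0.89, in wt.

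The genes that stood apart from the line of all genes were mostly the higher ones. GAL2 lay 1.74 above it, DSF1 1.55, COS111 1.38, DAK2 1.36, CSR2 1.31, HSP30 1.29 and ACS1 1.21. COS111, despite its name no member of the subtelomeric COS family, had 1.47 and 1.33 in ptc1, against −0.30 and 0.37 in wt (1.37 ± 0.48). On the lower side ARO10 lay 1.44 below the line, YHR095W 1.37, YGR069W 1.25, HXT6 1.05, SCW10 1.04 and ARO5 1.00, and RKI1, the ribose-5-phosphate isomerase gene, lay 1.08 below it although its plain difference was −0.53 ± 0.22. ARG4 lay only 0.41 below it, CPS1 0.33, NOG2 0.65 above it and RPA43 0.43. Of genes above the line with positive ratios in both strains, RGI1 had 2.63 and 2.58 in ptc1, against 2.07 and 1.498 in wt, and the aquaglyceroporin-like gene AQY3 had 1.07 and 1.59 in ptc1, against 0.43 and 0.36 in wt. Neither reached a plain difference of 1 (0.82 ± 0.40 and 0.94 ± 0.37).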

How the data were processed

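The deposited table holds 1 log ratio per row and array, taken here as log2 of rapamycin over mock. Per the labels, the authors had dropped spots under 120 µm in diameter or under 150 intensity units in Cy3 and Cy5 and normalised by the ratio of medians. RNA (8 µg) was labelled indirectly, and a dye swap was made. Scanner software, background correction, log base and direction were not found in the labels or the table. Titles and dye fields of the ptc1 arrays name opposite dyes, but all 4 columns correlated positively, so no sign was turned.

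Of 6212 rows, 5662 were named by locus tag and 52 by synonym from the R64 assembly table, and 498 kept their identifier. The 4669 rows complete on all 4 arrays were averaged by gene, leaving 4650, of which 212 are not in that table. Python 3.11.15 with pandas 2.3.3, numpy 2.4.6 and matplotlib 3.10.9 was used, and the scripts were tested on simulated data. A called gene needed a mean difference of at least 1 in size and 1 sign over 4 array pairs. A ± of a difference is the root of the summed squared array SDs. A list was called where its median and all 4 pair medians had 1 sign.

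Named genes were the 15 most extreme calls each way, up to 4 members of each of 62 lists, calls of opposite sign, and pathway regulators. Genes named outside that rule were chosen after their values were seen. The members and lists were chosen with earlier results of these data known. Alternatives were centring, scaling to equal spread, distance from a least squares line, other sizes, a spread condition, no sign condition, single rows, and each array left out. No promoter or protein sequences were used here, so the planned motif comparison was not run. Values of some single genes are not reported here.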

Additional observations from a re-analysis of the deposited data

Results flagged for a closer look

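For 9 genes past the rule both ptc1 arrays had one sign and both wt arrays the other, and the differences were not tested. Above 0 in ptc1 and below 0 in wt were CSR2 (ptc1 minus wt 1.46), HSP30 (1.31), ACS1 (1.29), SUL2 (1.06) and SMP1 (1.02). Below 0 in ptc1 and above 0 in wt were YHR095W (−1.55), YGR069W (−1.41), SCW10 (−1.10) and HSL1 (−1.08). The median of the aspartate, threonine and serine synthesis list also had opposite signs by array, below 0 on both ptc1 arrays (−0.02 and −0.10) and above 0 on both wt arrays (0.32 and 0.19), and its median difference of −0.33 was not tested.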

How the results depend on the processing

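Of the 45 higher and 43 lower genes, centring kept 45 and 41, scaling to equal spread kept 31 and 29, and asking for 2 combined SDs kept 34 and 30. A size of 1.5-fold gave 231 higher and 199 lower genes and 3-fold gave 4 and 3. Measured from the line of all genes, 19 were higher and 7 lower. With 1 array left out, the counts ran from 42 to 90 higher and from 50 to 109 lower, and 22 of the 88 genes moved by over 1.5 times, 15 of them without ptc1 array 2. Centring shifts all genes by the same small amount, so it could not turn the direction of the 65 genes named from the 88. Their direction was kept on scaling and when measured from the line. They were picked for a difference of at least 1, so this says little. Measured from the line, 32 of the 65 moved by at least their combined array SD. The direction of the 65 in each array pair, and so with 1 array left out, was fixed by the rule itself. Of the 35 lists with a direction, 23 stayed within 1 SD of their pair medians on scaling and 13 when measured from the line. On centring all 35 did, but centring shifts every list by the same small amount, so this could not have come out otherwise. On scaling, arginine synthesis was −0.82, lysine synthesis −0.56, ribosomal proteins 0.13 (small subunit) and 0.085 (large subunit), and the small subunit processome 0.15. From the line, arginine was −0.50, lysine −0.39 and cell wall integrity targets −0.24, and 10 lists reversed: nitrogen-regulated permeases (0.15), retrograde response (0.14), trehalose (0.082), general stress (0.053), peroxide and redox defence (0.0072), ribosomal proteins of the small (−0.27) and large subunit (−0.33), small subunit processome (−0.061), large subunit assembly (−0.14) and RNA polymerases I and III (−0.098). That line subtracts the general slope by construction. With 1 array left out arginine ran from −1.15 to −0.94, the processome from 0.21 to 0.50 and large subunit assembly from 0.091 to 0.49; the cause was not tested. Averaging rows before completeness was asked, chosen after seeing the data, gave 46 higher and 43 lower. The planned promoter motif comparison was not run. The labels give the arrays no replicate numbers. Matching arrays by dye, from titles or from dye fields, uses the same 4 pairs as the rule. It could therefore not change the direction of the 65 named genes. Whether the arrays of a strain shared a culture is not stated, so differences between cultures were not separated from array spread.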

Other observations

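Genes measured on both ptc1 arrays but on no wt array, 326 in all, entered no comparison, and 76 were in the opposite position. Of the 326, 21 had a ptc1 mean of at least 1 and 40 a mean of −1 or less. The shares over all genes of the ptc1 arrays were not counted, so these counts do not set the 326 apart. PUT1, for proline oxidase, had ratios of 3.76 and 3.07 on the ptc1 arrays. ARG7, for an enzyme of arginine synthesis, had 2.55 and 2.04 there, and SIP4, for a factor of gluconeogenesis, 2.61 and 1.72. The lowest values belonged to ribosomal protein genes, among them RPL27A (−3.95 and −3.65) and RPL32 (−3.68 and −3.90). HEF3, for a translation elongation factor, differed by −1.52 between the strain means but not with one sign, at −1.61 and −0.86 in ptc1, against 2.16 and −1.58 in wt.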
